A study of Drosophila melanogaster with 36 samples.

Results

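Small RNAs bound to Argonaute1 (Ago1) were compared between dora and wild-type (WT) clonal lines of Drosophila S2 cells, a cultured fly cell line. All fly miRNAs and siRNA loci of the Ago1 libraries were taken, which are 310 fly miRNAs among 314 entries (the other 4 are size markers and spike-ins) and 13062 of 13063 loci, cisNAT-1355 being left out. These come from 6 of the 36 libraries of the series, 3 from dora lines and 3 from WT lines. Each dora line is 1 clone made with Cas9 and a guide to dora, selected with puromycin, sorted as single cells and screened for lesions at the target. Each WT line is 1 clone as well. Neither genotype was treated further. Ago1 was pulled down (Ago1-IP) with a tagged fragment of TNRC6B, a GW182-family protein that binds Ago1 and not Ago2. The dora transcript was not measured in the tables used, so that loss of Dora was not checked here. The lines are separate clones, and the p-values therefore measure the spread between clones.

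Dora is the fly ortholog of ZSWIM8, the substrate adaptor of a Cullin-RING ubiquitin ligase that acts in target-directed miRNA degradation. In that pathway a target RNA with extensive pairing to a miRNA leads to destruction of the Argonaute that holds it, and the miRNA, once exposed, is degraded, while the other strand of the hairpin is spared. In flies, most miRNAs are loaded into Ago1, whereas siRNAs made by Dicer-2 from hairpins, transposons and convergent transcripts are loaded into Ago2 and methylated at their 3′ end by Hen1. An Ago1-IP therefore shows the miRNA pool within Ago1 together with the few siRNAs that reach it. A miRNA finds its targets mainly through its seed, bases 2 to 8.

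The sequences of the miRNAs on which the results turn are shown 5′ to 3′ with the seed in capitals, from RefSeq annotation of genome Release 6 (dm6). They include 9 of the 10 miRNAs that the study names Dora-sensitive from total small RNA, miR-9388-5p, and, for contrast, miR-1003-3p and miR-1006-3p, which come from mirtrons, short introns that form a hairpin after splicing.
miR-12-5p: uGAGUAUUacaucagguacuggu
miR-190-5p: aGAUAUGUuugauauucuugguug
miR-9c-5p: uCUUUGGUauucuagcuguaga
miR-9b-5p: uCUUUGGUgauuuuagcuguaug
miR-996-3p: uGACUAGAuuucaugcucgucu
miR-279-3p: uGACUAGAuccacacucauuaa
miR-999-3p: uGUUAACUguaagacugugucu
miR-277-3p: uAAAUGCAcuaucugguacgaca
miR-1012-3p: uUAGUCAAagauuuuccccauag
miR-9388-5p: gUAUGUAUguauguacauacaug
miR-1003-3p: uCUCACAUuuacauauucacag
miR-1006-3p: uAAAUUCGauuucuuauucauag

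miR-9b-5p and miR-9c-5p share the seed CUUUGGU, and miR-279-3p and miR-996-3p share GACUAGA. Of the 91 miRNAs tested below, 87 could be matched to 1 seed, and no further tested miRNA had the seed of a Dora-sensitive one. miR-9c-5p (chr2L:16697936-16697957) and miR-9b-5p (chr2L:16698758-16698780) lie in an intron of grp, which encodes a checkpoint kinase. miR-12-5p (chrX:15509479-15509501) lies in an intron of Gmap, miR-190-5p (chr3L:8571822-8571845) in an intron of rhea, which encodes talin, and miR-999-3p (chr3R:21798249-21798270, minus strand) in an intron of CASK. miR-279-3p (chr3R:29215651-29215672) and miR-996-3p (chr3R:29217244-29217265) lie in exons of 1 noncoding RNA, lncRNA:CR31044. miR-277-3p (chr3R:10100080-10100102) lies in an exon of lncRNA:CR43459. miR-1012-3p (chr3R:26861349-26861371, minus strand) is a mirtron product from an intron of Lerp. miR-7-5p comes from an intron of HnRNP-K on chromosome arm 2R, and miR-9388-5p (chr3L:22945131-22945153) from no annotated gene.

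The dora libraries held 8538446 to 10673874 fly miRNA reads and the WT libraries 5070235 to 8093141. At the siRNA loci they held 17640 to 26413 reads in dora and 12557 to 17526 in WT. bantam-3p, miR-14-3p, miR-184-3p and miR-34-5p, the miRNAs known to be abundant in S2 cells, made up 46.8 to 47.9% of miRNA reads in dora and 54.5 to 57.2% in WT. Markers of muscle (miR-1-3p), neurons (miR-124-3p) and ovary (miR-318-3p and miR-994-5p) summed to 0.00862 to 0.0136% in dora and 0.00738 to 0.0108% in WT, with all 4 detected in every library, and 0 of the 2 that could be tested passed the test. The Ago2-enriched miRNAs of an 11-member list made up 0.484 to 0.545% in dora and 0.456 to 0.531% in WT.

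The first comparison asks which miRNAs within Ago1 change upon loss of Dora. Values are given in RPM, the reads of a miRNA scaled to the fly miRNA reads of its library. Among the 91 miRNAs with a mean over 5 RPM in WT and a regular spread within each genotype, 29 increased (31.9% of those tested) and 22 decreased (24.2%), or 56.0% in either direction, at an adjusted p under 0.05 (edgeR quasi-likelihood test with Benjamini-Hochberg adjustment), and 53 had an unadjusted p under 0.05. Without dora replicate 1 the number that decreased was 13, and without dora replicate 2 or WT replicate 3 it was 14. Counts of reads in a sequencing library are relative, so that fewer molecules of one miRNA and more of the others cannot be told apart. With the library size set to 15 miRNAs of an Ago1-enriched list, the median log2 fold change of the 91 was 0.20, against -0.03 with TMM factors. The calls were then 34 increases and 8 decreases. The 15 were not constant themselves, with means of 71.9% of fly miRNA reads in dora and 80.9% in WT. They include bantam-3p, which had a log2 fold change of -0.79 with TMM factors. The part of such members in the shift was not tested.

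Among the 91 tested, the Dora-sensitive miRNAs were the largest increases by log2 fold change except that miR-9388-5p lay above the last of them. Of 10, 9 could be tested and 9 increased, with a median log2 fold change of 3.42, against a median of -0.03 over all 91. The study chose these miRNAs in libraries of total small RNA from the same genotypes. Together they made up 8.54, 8.45 and 8.55% of the fly miRNA reads in the dora libraries, against 0.862, 1.00 and 0.976% in the WT libraries. The difference of 7.57 percentage points had p = 0.1 in a two-sided exact permutation test, which is the smallest p that 3 libraries against 3 allow.

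The genotypes were far apart for each member, while over all 91 tested 36.3% lay above WT without overlap and 26.4% below. miR-12-5p had 8938, 10312 and 9439 RPM in dora, against 229, 113 and 174 RPM in WT. It was the largest change in Ago1, with means that differed by a factor of 55.7 and a log2 fold change of 5.74 (SE 0.27, adjusted p = 9.82e-07 from edgeR). SE is the log2 fold change divided by the square root of the F statistic. WT replicate 2 had the lowest value, and the SE was the widest among the 9.

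miR-190-5p had 7135, 7323 and 7144 RPM in dora, against 241, 282 and 278 RPM in WT, a log2 fold change of 4.69 (SE 0.11, adjusted p = 3.9e-08 from edgeR). miR-7-5p, which acts in photoreceptor differentiation in flies and is a known substrate of this pathway in mammals, had 6715, 5921 and 7135 RPM in dora, against 259, 329 and 264 RPM in WT, a log2 fold change of 4.48 (SE 0.15, adjusted p = 9.4e-08 from edgeR). In both, the dora libraries lay within a narrow band more than an order of magnitude above WT.

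The pair that shares the seed CUUUGGU differed in size of change. miR-9c-5p had 3920, 3811 and 3953 RPM in dora, against 202, 250 and 216 RPM in WT, a log2 fold change of 4.07 (SE 0.12). Its relative miR-9b-5p had 5613, 5528 and 5858 RPM in dora, against 642, 974 and 743 RPM in WT, a log2 fold change of 2.79 (SE 0.17). Both adjusted p-values were low (8.03e-08 and 3.84e-06 from edgeR), and no library of either miRNA overlapped between genotypes.

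The pair with the seed GACUAGA, whose members restrict the number of CO2-sensing neurons in flies, was unequal too. miR-996-3p had 15837, 16001 and 14075 RPM in dora, against 1286, 1472 and 1350 RPM in WT, a log2 fold change of 3.42 (SE 0.11). miR-279-3p, from the same noncoding RNA, had 10310, 11553 and 8702 RPM in dora, against 2056, 2253 and 2279 RPM in WT, a log2 fold change of 2.15 (SE 0.12), the smallest of the 9. Whether the members of a pair differ in change was not tested.

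miR-999-3p had 3991, 4101 and 4192 RPM in dora, against 484, 502 and 529 RPM in WT, a log2 fold change of 2.96 (SE 0.10). miR-277-3p, which represses enzymes of branched-chain amino acid breakdown in flies, was the most abundant member, with 22394, 19266 and 24119 RPM in dora, against 3145, 3812 and 3807 RPM in WT, a log2 fold change of 2.55 (SE 0.13). In neither did the genotypes overlap.

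miR-1012-3p could not be tested with the others because its spread among WT lines was too wide. It had 585, 718 and 902 RPM in dora, against 79.3, 31.0 and 124 RPM in WT, with WT replicate 2 the lowest. Every dora library lay above every WT library. Without the filter on spread its log2 fold change was 3.18 (SE 0.52, adjusted p = 0.00315 from edgeR).

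miR-9388-5p was the only one of the other 82 tested miRNAs above a log2 fold change of 1.5. It had 179, 181 and 127 RPM in dora, against 30.8, 39.2 and 32.0 RPM in WT, a log2 fold change of 2.197 (SE 0.19, adjusted p = 4.24e-05 from edgeR). The other arm went the other way: miR-9388-3p had 800, 806 and 973 RPM in dora, against 1225, 1490 and 1376 RPM in WT, a log2 fold change of -0.73 (SE 0.13, adjusted p = 0.00241 from edgeR). No library of either arm overlapped between genotypes.

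**Figure D1:**
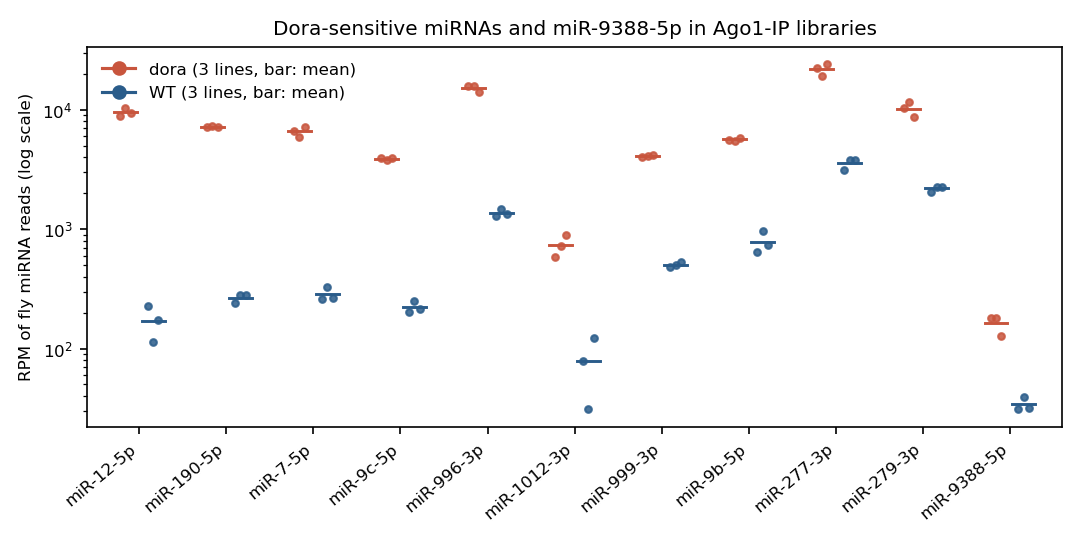
RPM (log axis) of the 10 Dora-sensitive miRNAs and miR-9388-5p in each Ago1-IP library, ordered by the ratio of the means, dora lines left of WT lines, each point a clonal line and each bar the mean of 3. The dora points lie above the WT points in all 11, and the wide WT spread of miR-1012-3p (31.0 to 124 RPM) stands out.

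The other arm of each Dora-sensitive hairpin, which is made from the same precursor, showed whether the change was shared by the hairpin. Among 8 such arms tested, 2 increased and 2 decreased, with a median log2 fold change of 0.09 and a range from -0.49 to 0.90. These counts are close to the shares over all 91, of which 31.9% increased and 24.2% decreased. The arms that fell were miR-9b-3p (-0.49, adjusted p = 0.0187) and miR-190-3p (-0.41, adjusted p = 0.0162), and those that rose were miR-12-3p (0.90, adjusted p = 0.049) and miR-9c-3p (0.37, adjusted p = 0.0419), all from edgeR. None of these 4 calls held when each library was left out in turn. Without dora replicate 1, adjusted p was 0.0605 for miR-9b-3p, 0.0593 for miR-190-3p, 0.0721 for miR-12-3p and 0.0605 for miR-9c-3p, and without dora replicate 2 it was 0.0612, 0.0505, 0.0625 and 0.0612 in the same order. Without WT replicate 3 the 4 values were 0.0612, 0.063, 0.104 and 0.0664. miR-12-3p was also lost without dora replicate 3 (0.189) or WT replicate 2 (0.107), and miR-9c-3p without dora replicate 3 (0.12) or WT replicate 1 (0.0889). All 10 arms summed to 0.147 ± 0.018% of miRNA reads in dora and 0.136 ± 0.007% in WT (SD, n = 3 each, two-sided exact permutation p = 0.4).

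The ratio of reads between the arms of a hairpin does not depend on how libraries are scaled. In every one of the 10 hairpins the ratio was higher in each dora library than in each WT library. The difference of the log2 ratios ranged from 2.11 for miR-1012 to 5.11 for miR-190, and p was 0.1 for each by the two-sided exact permutation test, the smallest that 3 against 3 allow, also after adjustment over the 10. One read was added to each arm beforehand, which matters for miR-1012-5p, with 3 to 5 reads in dora and 0 to 2 in WT. With 10 reads added the difference of miR-1012 was 3.45, and the lowest was then the 2.29 of miR-279.

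The arm that prevailed was not the same in both genotypes for miR-9c and miR-190. miR-9c-5p had 5.22, 5.32 and 4.42 reads per read of miR-9c-3p in dora, against 0.383, 0.414 and 0.350 in WT. miR-190-5p had 33.5, 32.6 and 29.0 reads per read of miR-190-3p in dora, against 0.844, 0.963 and 0.956 in WT. Thus the 3p arm was the more abundant one in all WT libraries and the minor one in all dora libraries. For the remaining 8 hairpins the Dora-sensitive arm prevailed in both genotypes, as for miR-7, with 573, 665 and 735 reads per read of miR-7-3p in dora, against 32.4, 37.0 and 34.5 in WT.

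**Figure D2:**
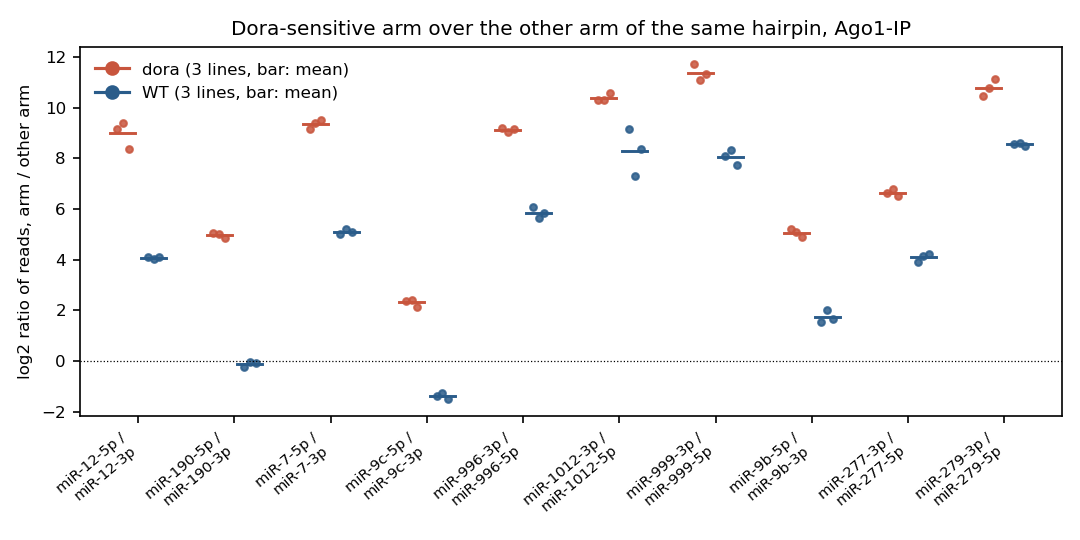
Log2 ratio of reads of the Dora-sensitive arm to reads of the other arm of the same hairpin in each Ago1-IP library (1 read added to each), dora lines left of WT lines, bars showing the mean of 3. All dora points lie above the WT points, and only miR-190 and miR-9c cross the dotted line at equal reads.

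Clustered miRNAs, which share a primary transcript with a Dora-sensitive one, showed smaller changes in both directions. Of 11 tested, 5 increased and 3 decreased, with a median log2 fold change of 0.34, against 31.9% increased and 24.2% decreased over all 91. In the cluster of miR-9c, miR-306, miR-79 and miR-9b, miR-306-5p had 9310, 8988 and 8011 RPM in dora, against 10845, 11958 and 11256 RPM in WT, a log2 fold change of -0.43 (adjusted p = 0.00536 from edgeR). miR-79-3p had 3328, 3218 and 3463 RPM in dora, against 4112, 4887 and 4570 RPM in WT, a log2 fold change of -0.50 (adjusted p = 0.00414 from edgeR). These neighbours were thus lower in dora while miR-9c-5p and miR-9b-5p from the same intron were many times higher. With the 15-miRNA library size the call of miR-306-5p was lost (-0.20, adjusted p = 0.09 from edgeR).

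In the cluster of miR-12, miR-283 and miR-304 the neighbours rose with miR-12-5p but far less. miR-283-5p had 8435, 9868 and 9115 RPM in dora, against 5920, 2442 and 4020 RPM in WT, a log2 fold change of 1.09 (SE 0.28, adjusted p = 0.0141 from edgeR). miR-283-3p and miR-304-3p increased by 1.05 and 1.32 on the log2 scale (adjusted p = 0.0149 and 0.00325 from edgeR), while miR-304-5p had 0.34 (adjusted p = 0.219 from edgeR). WT replicate 2 was the lowest library for all 4 of these arms and for both arms of miR-12, and the part of that line in the changes was not tested. Without it miR-283-5p changed by 0.83 on the log2 scale (adjusted p = 0.00447 from edgeR), while both arms of miR-283 fell short of it without dora replicate 1, 2 or 3 (adjusted p 0.056, 0.0612 and 0.0663 for miR-283-5p and 0.0591, 0.0505 and 0.065 for miR-283-3p).

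In the cluster of miR-277, miR-34 and miR-317, miR-34-5p, which maintains neurons in ageing flies, had 36518, 35564 and 37310 RPM in dora, against 20410, 18203 and 17163 RPM in WT, a log2 fold change of 0.91 (SE 0.08, adjusted p = 5.64e-05 from edgeR). Its other arm, miR-34-3p, changed by -0.32 on the log2 scale (adjusted p = 0.0324 from edgeR) and miR-317-5p by 0.41 (adjusted p = 0.032 from edgeR). The call of miR-34-3p was lost without dora replicate 2 or WT replicate 1, 2 or 3 (adjusted p 0.0612, 0.053, 0.0564 and 0.0664) and that of miR-317-5p when any 1 of the 6 libraries was left out (adjusted p 0.051 to 0.0999). miR-317-3p and miR-277-5p had 0.10 and 0.03.

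**Figure D3:**
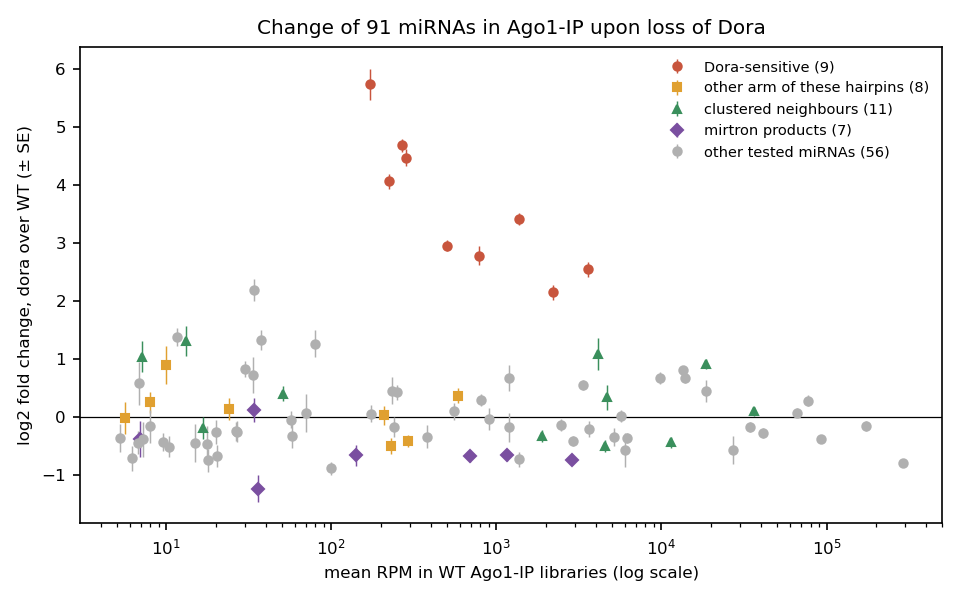
Log2 fold change of the 91 tested miRNAs in Ago1-IP (dora over WT, bars showing the SE from edgeR) against the mean RPM in WT (log axis), coloured by group. The 9 Dora-sensitive miRNAs (2.15 to 5.74) stand above nearly all others, while their other arms lie between -0.49 and 0.90.

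Among the tested miRNAs outside these hairpins and clusters, the largest increases after miR-9388-5p were of 1.39 or less on the log2 scale. miR-275-5p had 31.74, 29.23 and 34.03 RPM in dora, against 10.74, 13.02 and 11.12 RPM in WT, a log2 fold change of 1.39 (SE 0.16, adjusted p = 0.000194 from edgeR). The other arm and the neighbour of miR-275 moved the same way: miR-275-3p by 0.67 (23648, 21502 and 23908 RPM in dora, against 13365, 14518 and 13668 RPM in WT) and miR-305-5p by 0.81 (25740, 24139 and 24182 RPM in dora, against 13314, 14068 and 13054 RPM in WT). miR-275 lies in an exon of lncRNA:CR43857 on chr2L, next to miR-305, which is known to keep intestinal stem cells in balance.

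Further increases included miR-1002-5p (1.33), miR-263a-5p (1.27), miR-308-5p (0.83), miR-33-5p (0.68) and miR-970-3p (0.67). miR-263a protects sensory organ cells from apoptosis, and miR-33 lies in an intron of SREBP, a regulator of lipid synthesis. Their adjusted p-values from edgeR ran from 0.000480 to 0.035, the highest being that of miR-970-3p, whose call was lost without dora replicate 1, 2 or 3 (0.103, 0.0946 and 0.15). miR-263a-5p had 155, 196 and 249 RPM in dora, against 59.2, 90.7 and 89.2 RPM in WT, without overlap.

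The minimum in WT left out some miRNAs that were scarce in WT and higher in dora, of which 3 are given here, chosen after their values were seen. miR-929-5p had 15.3, 18.2 and 18.1 RPM in dora, against 1.65, 0.197 and 2.22 RPM in WT. miR-4968-5p had 7.73, 9.46 and 17.5 RPM in dora, against 0.964, 0.592 and 1.36 RPM in WT. miR-286-3p had 8.08, 9.74 and 7.72 RPM in dora, against 1.24, 1.78 and 1.36 RPM in WT. In none did the genotypes overlap, which follows from how the 3 were chosen. The ratios of the means, 12.7, 11.9 and 5.84 in that order, rest on few WT reads, 9 to 11 per library for miR-286-3p. Other untested miRNAs lay above WT without overlap, such as miR-2493-3p (ratio 10.1), or below, such as miR-2493-5p (0.293).

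bantam-3p, the most abundant miRNA in each WT library and a promoter of growth and cell survival, decreased. It had 167967, 170032 and 186550 RPM in dora, against 293406, 281056 and 295166 RPM in WT, a log2 fold change of -0.79 (SE 0.06, adjusted p = 2.57e-05 from edgeR). Its call remained under all 14 alternatives, with log2 fold changes from -0.86 to -0.56. bantam-5p, the arm enriched in Ago2, had 2540, 2402 and 2112 RPM in dora, against 2611, 2518 and 2302 RPM in WT, and these overlapped (-0.14, adjusted p = 0.303 from edgeR). miR-2a-1-5p also decreased, with 58.2, 55.5 and 55.2 RPM in dora, against 101.9, 95.3 and 101.2 RPM in WT (-0.88, adjusted p = 0.00048 from edgeR). miR-2279-3p (-0.74) and miR-967-5p (-0.71) passed in the full data but were lost without dora replicate 1 or 2 or WT replicate 3 (adjusted p 0.0694, 0.0554 and 0.0664 for miR-2279-3p and 0.0796, 0.0607 and 0.0876 for miR-967-5p).

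Most of the tested mirtron products decreased. Of 28 listed arms, 20 were in the table and 7 could be tested. Among these, 0 increased and 5 decreased, with a median log2 fold change of -0.66, against 31.9% increased, 24.2% decreased and a median of -0.03 over all 91. miR-1003-3p had 1727, 1921 and 1718 RPM in dora, against 2711, 2845 and 3004 RPM in WT (-0.73, adjusted p = 0.00048 from edgeR). miR-1006-3p had 751, 770 and 786 RPM in dora, against 1081, 1159 and 1256 RPM in WT (-0.66, adjusted p = 0.00102 from edgeR), with no overlap in either. miR-1009-3p changed most, with at most 18.1 RPM in dora and at least 29.6 RPM in WT (-1.23, adjusted p = 0.00283 from edgeR), and miR-1008-3p and miR-1007-3p had -0.68 and -0.66 (adjusted p = 0.00102 and 0.0197). miR-1005-3p (0.13) and miR-1013-3p (-0.38) did not pass the test. The 5 that decreased were lower in dora in total small RNA as well. There the log2 fold changes ran from -1.70 (miR-1009-3p, adjusted p = 0.00254) to -0.58 (miR-1003-3p, adjusted p = 0.0391, edgeR). Of the 5, only miR-1008-3p did not pass there (-1.03, adjusted p = 0.0758 from edgeR). None of the 5 passed the edgeR test, described below, of the difference between Ago1-IP and total small RNA (adjusted p 0.159 to 0.63). miR-1012-3p, also on the list, was left out of the 7 by the filter on spread. It was higher in dora, with means of 735 RPM in dora and 78.0 RPM in WT.

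The question whether Ago1 shows a larger change than the whole small RNA pool was put to the libraries of total small RNA from 3 dora and 3 WT lines, with an interaction of genotype and library type in edgeR. The total libraries are those of an earlier publication, and library type and the occasion on which libraries were made cannot be told apart. WT lines of the same number deviated together across types although the model takes them as independent. One WT column of the total miRNA table carries no number of a sample and was used as an unnumbered WT library, and dora replicates 1 and 3 of the total libraries may be numbered differently between deposited tables, so that statements on single total libraries and on clonal lines as block rest on the column names. Of 86 miRNAs tested, 16 rose more in Ago1-IP (18.6%) and 0 rose less (0%, and 1 at an unadjusted p under 0.05), with 7 of the 9 Dora-sensitive ones among the 16. The median difference of all 86 was 0.33 because TMM factors were set over both types. With factors within each type the median was 0.02, 7 rose more and 2 rose less, and 4 of the 9 were called. The 2 were bantam-3p (-0.67, adjusted p = 0.0318) and miR-2a-1-5p (-0.87, adjusted p = 0.0055 from edgeR). In total small RNA alone these had log2 fold changes of -0.12 and -0.02 (adjusted p = 0.689 and 0.973 from edgeR). Leaving out 1 library gave 3 to 18 that rose more, with 3 without dora replicate 1 or 2 of the Ago1-IP or dora replicate 1 or WT replicate 3 of the total libraries, 4 without WT replicate 1 of the Ago1-IP or dora replicate 2 of the total libraries, and 9 without WT replicate 3 of the Ago1-IP. It gave 0 to 16 that rose less, with 16 and 9 without dora replicate 2 or 1 of the total libraries and 14 and 7 without WT replicate 1 or dora replicate 2 of the Ago1-IP.

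Among the Dora-sensitive miRNAs, miR-9c-5p, miR-190-5p, miR-12-5p and miR-277-3p had the widest differences. The log2 fold change of miR-9c-5p was 4.07 in Ago1-IP and 1.91 in total small RNA, a difference of 2.47 (adjusted p = 1.57e-07 from edgeR) or 2.15 with factors within types (adjusted p = 1.13e-06). For miR-190-5p it was 4.69 and 2.72, a difference of 2.28 or 1.96 (adjusted p = 1.57e-07 and 1.13e-06). For both, the difference remained past the threshold under all 16 alternatives.

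miR-12-5p changed by 5.74 in Ago1-IP and 4.01 in total small RNA, a difference of 2.03 (adjusted p = 0.00423 from edgeR) or 1.73 with factors within types (adjusted p = 0.0232). This call was lost without Ago1-IP dora replicate 1 or 2 (1.35 and 1.20, adjusted p 0.0966 and 0.0949), without total dora replicate 1 or 2 (1.25 and 1.36, adjusted p 0.0823 and 0.0532) and without total WT replicate 3 (1.41, adjusted p 0.0911). miR-277-3p changed by 2.55 in Ago1-IP and 1.69 in total small RNA, a difference of 1.18 or 0.86 (adjusted p = 0.00148 and 0.016 from edgeR). It was lost when any of 6 libraries was left out, with differences from 0.28 to 0.58 in those fits, lowest without Ago1-IP WT replicate 1.

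The remaining 5 had differences between 0.46 (miR-279-3p) and 0.95 (miR-996-3p) with joint factors and between 0.13 and 0.62 with factors within types, where none was called. Of these 5, miR-7-5p, miR-996-3p and miR-999-3p passed with joint factors (adjusted p = 0.0306, 0.0405 and 0.041 from edgeR). All 3 calls were lost without Ago1-IP dora replicate 1, 2 or 3, Ago1-IP WT replicate 1 or 3, total dora replicate 1 or 2, or total WT replicate 3. Without Ago1-IP WT replicate 1 the differences were -0.11 for miR-7-5p, 0.08 for miR-996-3p and -0.29 for miR-999-3p. Others fell in that fit too, miR-277-3p from 1.18 to 0.28, miR-279-3p from 0.46 to -0.40 and miR-9b-5p from 0.67 to -0.29. Whether the scaling of libraries moved these miRNAs together was not tested. miR-7-5p and miR-996-3p were also lost without the unnumbered total WT library (adjusted p 0.0538 and 0.0539) and miR-999-3p without total WT replicate 1 (adjusted p 0.0529). miR-9b-5p passed without Ago1-IP WT replicate 2 (0.88, adjusted p = 0.00837) and with clonal line as block (0.85, adjusted p = 0.0172, all from edgeR). miR-7-5p, with 4.48 in Ago1-IP and 4.02 in total small RNA, had a difference of 0.77. In WT lines the 4 widest differences belonged to miRNAs with more RPM in periodate-treated than in total libraries, at ratios of 5.34 for miR-9c-5p, 4.58 for miR-12-5p, 4.41 for miR-190-5p and 3.90 for miR-277-3p. Periodate followed by elimination removes small RNAs that lack the 3′ methyl group and so leaves mainly those of Ago2. The ratio was 0.30 for miR-7-5p, 0.14 for miR-9b-5p, 0.83 for miR-999-3p and 1.18 for miR-279-3p. miR-996-3p had a ratio of 4.80 with a difference of 0.95. These ratios and the differences share the total WT libraries, and the order is a description of 9 miRNAs.

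miR-9388-5p went in opposite directions in the 2 kinds of library. Its log2 fold change was 2.197 in Ago1-IP, -1.33 in total small RNA (adjusted p = 0.016) and -1.16 after periodate (adjusted p = 0.0492, all from edgeR). The difference from total small RNA was 3.85 (SE 0.37, adjusted p = 3.38e-06 from edgeR) and from treated libraries 2.43 (adjusted p = 0.000108), and the first stayed between 2.98 and 4.16 under all 16 alternatives. It averaged 162 RPM in dora and 34.03 RPM in WT in Ago1-IP, 21.6 RPM in dora and 59.1 RPM in WT in total small RNA, and 274 RPM in dora and 572 RPM in WT after periodate. The ratio of treated to total RPM in WT was 9.67.

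Against periodate-treated libraries the Dora-sensitive miRNAs all changed more in Ago1. Of 81 miRNAs tested, 10 rose more in Ago1-IP (12.3%) and 34 rose less (42.0%), or 54.3% in either direction, with joint factors, where the median difference was -0.77. With factors within types the median was 0.09, and 13 rose more and 2 less. All 9 Dora-sensitive miRNAs tested were called under both. Their differences ran from 1.11 for miR-279-3p to 4.05 for miR-12-5p with joint factors and from 1.98 to 4.91 with factors within types, and each call remained under all 16 alternatives. In treated libraries alone the 9 had log2 fold changes from -0.15 (miR-277-3p) to 0.82 (miR-7-5p). Lines of the same number, dora as well as WT, deviated together between Ago1-IP and treated libraries (r from 0.076 to 0.58 over 81 miRNAs). The model takes them as independent here too.

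**Figure D4:**
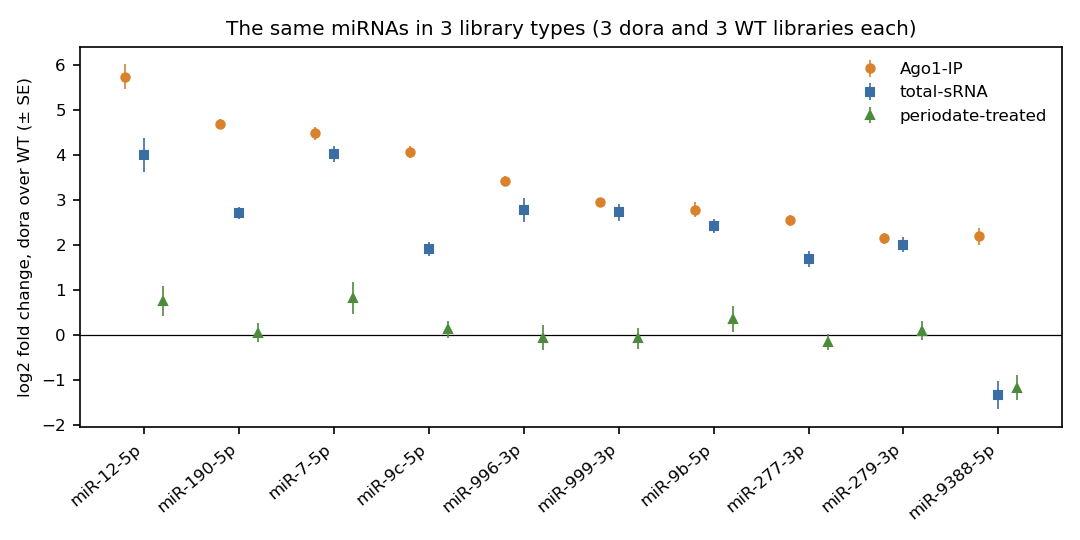
Log2 fold change (dora over WT, bars showing the SE from edgeR fitted within each library type) of 9 Dora-sensitive miRNAs and miR-9388-5p in Ago1-IP, total-sRNA and periodate-treated libraries, 3 dora and 3 WT lines each. Ago1-IP points lie highest throughout, treated points of the Dora-sensitive miRNAs lie between -0.15 and 0.82, and miR-9388-5p is below 0 outside Ago1-IP.

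The same Ago1-IP libraries were examined for siRNAs, to ask whether siRNAs that enter Ago1 also depend on Dora. The authors deposited a signal for each locus, reads scaled to all genome-mapped reads, in which 1 read was worth 62.4 to 109 units, so that whole reads could be recovered (100% of values whole within 0.02 of a read). Of the 13062 loci, 227 were tested, those with signal in all 6 libraries and an SD below the mean within both genotypes. At an adjusted p under 0.05 (limma on log2 of the signal plus 1), 6 increased (2.64%) and 0 decreased (0%), and 26 had an unadjusted p under 0.05. edgeR on the recovered reads called 8 increases (3.52%) and 7 decreases (3.08%), or 6.61% in either direction, and shared all 6 increases with limma. Without overlap between genotypes, 10.1% of the 227 lay above WT and 4.41% below. Without dora replicate 3, limma called 9 increases and 12 decreases.

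Both hairpin loci tested increased. Such loci are transcribed into long inverted repeats that Dicer-2 cuts into siRNAs. The CR18854 hairpin (hpRNA:CR18854, minus strand, in the merged locus chr2L:9787285-9790745 that also overlaps IP3K1) had a signal of 538045, 462022 and 685940 in dora, against 253166, 268860 and 291960 in WT. The log2 fold change was 1.03 (SE 0.17, adjusted p = 8.58e-06 from limma). It held 6995 to 10100 reads in dora and 2459 to 3915 in WT. The CG4068 hairpin (hpRNA:CR46342, chrX:4921677-4928133, minus strand, which also overlaps CG44774) had a signal of 4077, 4616 and 8489 in dora, against 1694, 1968 and 3281 in WT, with the third line the highest in both genotypes. The log2 fold change was 1.29 (SE 0.31, adjusted p = 0.00602 from limma), on 53 to 125 reads in dora and 18 to 44 in WT.

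The siRNAs probed in the study at these loci are shown as the transcribed strand, with nothing in capitals, to show how the hairpins differ in structure.
CG4068_1 probe target: ttgactccaacaagttcgctcc
CR18854_1 probe target: gggaaactatggatcaaa
The first, a target of 22 nt, occurs 20 times within the CG4068 locus at a spacing of at least 270 nt and nowhere else in the assembled chromosomes. The second, of 18 nt, occurs once in the CR18854 locus.

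Both hairpins were also above WT in reads scaled in the same way as RPM, to the fly miRNA reads of the library. CR18854 had 819, 694 and 1181 reads on that scale in dora, against 432, 485 and 484 in WT. CG4068 had 6.21, 6.93 and 14.6 in dora, against 2.89, 3.55 and 5.44 in WT. With the loci scaled this way, an alternative added after seeing the data, limma gave 0.91 for CR18854 and 1.16 for CG4068 (adjusted p = 0.0322 and 0.0348). The calls were lost when only the 35 loci with at least 10 reads in every library were tested (adjusted p = 0.0646 and 0.0813 from limma).

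The largest change of a locus was that of overlap-194, a stretch of 66002 nt on chromosome arm 2R that holds 29 annotated transposon insertions, among them Rt1b, roo and GATE, and no annotated gene. It had a signal of 5692, 6799 and 4279 in dora, against 403, 219 and 298 in WT, a log2 fold change of 4.20 (SE 0.39, adjusted p = 1.02e-12 from limma). The reads were 63 to 109 in dora and 2 to 5 in WT. Transposon copies are near-identical, so that the share of this locus rests on how the authors spread reads with several alignments.

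Of 148 cisNAT loci tested, where transcripts of both strands overlap, 3 increased and 0 decreased by limma, against 2.64% and 0% over all 227. By edgeR on recovered reads 3 increased and 3 decreased, against 3.52% and 3.08% over all 227. These counts are close to the shares over all loci. The locus where zfh2 and Tdg overlap (chr4:538331-540874, plus strand) had a signal of 2461, 3306 and 1494 in dora, against 645, 437 and 522 in WT, a log2 fold change of 2.12 (SE 0.42, adjusted p = 0.000351). cisNAT+370 (chrX:3387943-3391697), where Myc, the growth regulator, overlaps CG12535, had 2615, 2807 and 1970 in dora, against 726, 1312 and 671 in WT, a log2 fold change of 1.50 (SE 0.38, adjusted p = 0.0105). cisNAT-106, on 2R in lola and asRNA:CR45135, had 1077, 749 and 1019 in dora, against 323, 219 and 74.6 in WT, a log2 fold change of 2.42 (SE 0.64, adjusted p = 0.0143, all from limma).

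These loci rest on few reads, 22 to 53 in dora and 4 to 8 in WT for the locus of zfh2 and Tdg and at most 15 per library for cisNAT-106. The call of cisNAT+370 was lost without dora replicate 1 or 2 or WT replicate 3 (adjusted p 0.0541, 0.0877 and 0.169) and that of cisNAT-106 without dora replicate 1 or WT replicate 3 (adjusted p 0.114 and 0.169). Among 50 transposon loci tested, 0 passed by limma and 6 had an unadjusted p under 0.05, against 6 and 26 of all 227. Of these 50, edgeR on recovered reads called 1 increase and 4 decreases, against 3.52% and 3.08% over all 227. FBti0059648-, an insertion of the 297 element (chr2L:22307392-22311146) that overlaps Marf1 on the opposite strand, had 1231, 1185 and 475 in dora, against 403, 219 and 149 in WT, a log2 fold change of 1.90 (adjusted p = 0.0854 from limma and 0.0277 from edgeR on recovered reads). With limma it passed without dora replicate 3 (adjusted p = 0.00457) or WT replicate 1 (adjusted p = 0.0259).

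**Figure D5:**
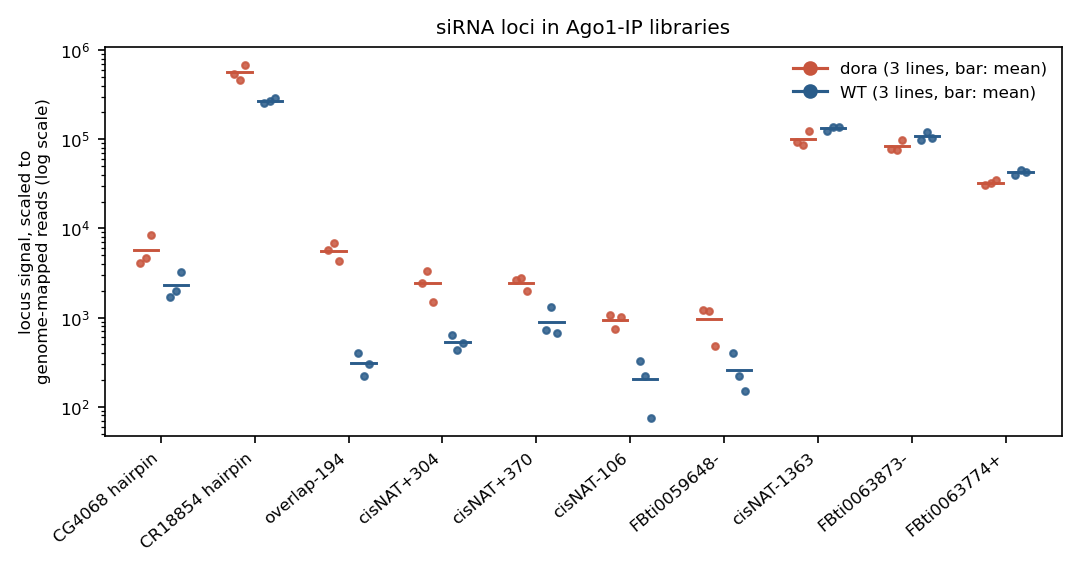
Deposited signal (reads scaled to genome-mapped reads, log axis) of the named siRNA loci in each Ago1-IP library, dora lines left of WT lines, bars showing the mean of 3. The hairpins, overlap-194, 3 cisNAT loci and FBti0059648- have all dora points above the WT points, and the 3 loci at the right have all dora points below. The first cisNAT locus shown is that of zfh2 and Tdg.

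The loci that edgeR called lower were nearly all abundant. Of 11 loci with at least 100 reads in every library, only CR18854 was above 0 by limma, and the other 10 had log2 fold changes down to -0.41, 6 of them called lower by edgeR and 0 by limma. cisNAT-1363 on 2R, where CG13330 and Vmat overlap, had a signal of 92610, 86641 and 123265 in dora, against 125050, 135797 and 138038 in WT (-0.41, adjusted p = 0.321 from limma, and -0.52, adjusted p = 0.00177 from edgeR). FBti0063873- (chr3R:6397779-6397873, an INE-1 copy in an intron of Dmtn) and FBti0063774+ (chr3R:15871760-15872078, an INE-1 copy in an intron of CG31183) had -0.36 and -0.39 by limma and -0.45 and -0.48 by edgeR.

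Reads of the size markers and of these loci were both high in 1 treated library. In periodate-treated dora replicate 1, where marker and spike reads were 66.3% of the counted reads (0.224 to 0.500% in the other 5 treated libraries), all 10 stood 18.7 to 103 times above the highest of the other treated libraries, as did cisNAT-1355 (69.1 times), while CR18854 stood at 0.529 times. In the Ago1-IP libraries marker and spike reads were 4.04 to 4.85% in dora and 4.82 to 6.55% in WT. By a limit of 5 times, chosen after seeing the data, 31 of the 227 tested loci stood out in that treated library. They held 45.1 to 48.3% of the locus signal in dora and 65.8 to 66.6% in WT, 31 of 31 were below 0 by limma, and 6 of the 7 decreases by edgeR were among them. The seventh, FBti0019845- (-1.32, adjusted p = 0.00261 from edgeR), was not. Ago1-IP dora replicate 3 and WT replicate 1 had similar marker and spike shares (4.85 and 4.82%) but 48.3 and 66.6% of locus signal at the 31. WT replicate 2, with the highest marker and spike share (6.55%), had 66.3% there.

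With these 31 loci left out, limma called the same 6 increases of 196 and 0 decreases, with 21 loci at an unadjusted p under 0.05. edgeR, with library sizes taken from the rest, called 3 increases, all among those 6, and 1 decrease. It gave 0.77 for CR18854 (adjusted p = 0.000694), 0.98 for CG4068 (adjusted p = 0.101) and 3.88 for overlap-194 (adjusted p = 2.14e-14). CR18854 was 39.7, 36.2 and 38.2% of all locus signal in dora, against 20.7, 19.6 and 22.3% in WT, but 72.3, 69.1 and 73.9% in dora, against 62.1, 58.1 and 65.2% in WT, once the 31 were left out. The part of marker reads in the lower values was not tested further.

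In periodate-treated libraries, which hold the siRNAs of Ago2, the genotypes overlapped at both hairpins. CR18854 had a signal of 3415150, 5902410 and 6451690 in dora, against 3811220, 5270290 and 5308490 in WT, and CG4068 had 2038, 4687 and 5557 in dora, against 3349, 3037 and 3603 in WT. At both, dora replicate 1 was the lowest library, and the other dora libraries lay above every WT library. Marker and spike reads were 66.3% of the counted reads in that replicate. It was kept in the tests below and in the miRNA tests against treated libraries above. The change in Ago1-IP minus the change in treated libraries was 0.94 for CR18854 and 1.11 for CG4068 (adjusted p = 0.442 and 0.689 from a limma interaction). Of 175 loci tested for this difference, 0 passed in either direction (0%) by limma, 15 rose more and 0 less at an unadjusted p under 0.05, and 1 passed without Ago1-IP dora replicate 3 or treated dora replicate 2. The standard errors were 0.34 and 0.70. With signal scaled to the total over loci, CR18854 passed this test (0.87, adjusted p = 0.0306 from limma). The locus that passed without either of the libraries named above was that of zfh2 and Tdg (3.72, adjusted p = 0.0239, and 4.11, adjusted p = 0.00397), with a difference of 3.41 in the full data (adjusted p = 0.0768, or 0.00308 with clonal line as replicate block, all from limma). overlap-194 had a signal of 9645, 115079 and 79919 in treated dora libraries, against 8374, 5282 and 12081 in treated WT libraries, with dora replicate 1 within the range of WT and the other dora libraries above it. Its difference between Ago1-IP and treated libraries was 1.74 (adjusted p = 0.61 from limma).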

How the data were processed

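Small RNAs of dora and WT S2 lines were sequenced by the authors, who trimmed reads with cutadapt. The authors deposited miRNA counts, raw reads per miRNA. For siRNA loci they aligned to dm6 with STAR 2.4, counted with Cufflinks and Cuffdiff 2.2.1, and deposited a signal scaled to genome-mapped reads. RNA-seq values at these loci were taken as FPKM from the deposited table, a unit inferred from its methods and values. Strand was used, and reads with several alignments were shared out.

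Here, miRNAs over 5 RPM in WT, with a coefficient of variation within 1.5 interquartile ranges of the quartiles, were tested with edgeR 4.0.16 (R 4.3.3; TMM, quasi-likelihood). Loci were tested with limma 3.58.1 on log2(signal + 1). DESeq2 1.42.0 was an alternative. Scripts were tested on simulated data. Members and lists were chosen with earlier results of these data known. Named were the Dora-sensitive miRNAs, their other arms and cluster neighbours, miR-9388-5p, the 8 other called miRNAs without overlap of largest change in each direction, both hairpins, and up to 6 other called loci without overlap of smallest p in each direction. Markers, bantam-5p, the other tested mirtron products and FBti0019845- were named besides. cisNAT-1355, 27.0 to 32.4% of signal in dora and 37.5 to 40.2% in WT, was left out. As libraries are bulk, fewer cells and less RNA per cell cannot be told apart.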

Additional observations from a re-analysis of the deposited data

Results flagged for a closer look

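For 6 of the named miRNAs, the change upon loss of Dora differed between Ago1-IP and total-sRNA libraries under both scalings. The test was of the difference itself (edgeR interaction, 3 lines per group). With factors over both kinds of library, 16 of all 86 tested passed (18.6%). The values with these factors come first. The difference of the log2 fold changes was 3.85 for miR-9388-5p (adjusted p = 3.38e-06), 2.47 for miR-9c-5p (adjusted p = 1.57e-07), 2.28 for miR-190-5p (adjusted p = 1.57e-07), 2.03 for miR-12-5p (adjusted p = 0.00423), 1.61 for miR-275-5p (adjusted p = 0.00145) and 1.18 for miR-277-3p (adjusted p = 0.00148). With factors within each kind they were 3.54, 2.15, 1.96, 1.73, 1.29 and 0.86 in that order. miR-308-3p passed under both scalings too (1.03 and 0.72) but was not among the named miRNAs. With joint factors, the calls of miR-12-5p and miR-277-3p were lost in several fits with 1 library left out, as given above. Library type and the occasion on which libraries were made cannot be told apart.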

How the results depend on the processing

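Of the main counts, the number of miRNAs that decreased was 8 with the 15-miRNA library size and 13 to 21 with 1 library left out. For loci, the number that increased was 0 with at least 10 reads in every library, and 3 by edgeR without the 31 loci, and the number that decreased was 11 with signal scaled to the total over loci, 7 by edgeR, 8 by DESeq2, 1 by edgeR without the 31 loci, and 0 to 12 with 1 library left out. For Ago1-IP minus total small RNA, 7, 10 and 3 miRNAs rose more and 2, 2 and 2 rose less with factors within types, all miRNA reads as library size and no filter on spread, with 3 to 18 and 0 to 16 when 1 library was left out. For Ago1-IP minus treated, 2, 2 and 2 rose less under the same 3 settings. For loci in that comparison 1 rose more with signal scaled to the total (CR18854), and 0 to 1 with 1 library left out. The share of the Ago2-enriched list differed by -0.0147 to 0.0225 percentage points with 1 library left out.

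Values near 0 changed sign. miR-277-5p had -0.00689 with a minimum of 50 RPM and -0.15 to 0.15 with 1 library left out. miR-279-5p had 0.044 with all reads as library size, 0.21 with the 15-miRNA one, 0.00852 without the filter on spread and -0.16 to 0.19 with 1 library left out, and miR-306-3p had 0.037 with the 15-miRNA one. The difference from total small RNA was -0.094 for miR-279-3p without the filter on spread, and with 1 library left out -0.43 to 0.57 for it, -0.11 to 0.92 for miR-7-5p, -0.33 to 0.64 for miR-999-3p and -0.29 to 0.88 for miR-9b-5p. The cause was not tested.

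Replicate numbers did not pair dora with WT lines (r = -0.21, -0.20 and 0.12 over 91 miRNAs). With the replicate block 27 miRNAs increased and 18 decreased, and 6 and 0 loci. With clonal line as replicate block, 1 miRNA rose less in Ago1-IP than in total small RNA and 1 locus, that of zfh2 and Tdg, rose more than after periodate. Read depth limits the low loci, several of which have under 10 reads in WT.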

Other observations

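RNA-seq of the same genotypes measured transcripts at the loci whose siRNAs increased in Ago1. At the CG4068 hairpin the authors' FPKM was 2.50, 2.47 and 2.94 in dora, against 4.66, 4.71 and 4.05 in WT, so that every dora library was below every WT library while the siRNA signal in Ago1 was above. That locus also overlaps 8 exons of CG44774 on the same strand, so that its FPKM is not that of the hairpin alone. At CR18854 the FPKM was 123, 135 and 116 in dora, against 148, 188 and 129 in WT, with overlap. At overlap-194 it was 0.0958, 0.626 and 0.920 in dora, against 0.0607, 0.0153 and 0.108 in WT. These overlapped through dora replicate 1 only, and the other dora libraries lay above every WT library, as after periodate. The part of transcript level in the siRNA change at this locus was not tested. The genotypes also overlapped at the locus of zfh2 and Tdg and at cisNAT+370, and cisNAT-106 had 0 in every library. cisNAT-1363, whose siRNAs did not increase, had every dora library below every WT library, but at low values. Its FPKM was 0.0955, 0.0295 and 0.0941 in dora, against 0.355, 0.0979 and 0.134 in WT. These values were not tested.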
